A study of Gallus gallus with 18 samples.

Results

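The ovary part of the series holds 6 of its 18 libraries, made from ovarian stroma with its small follicles. The tissue came from 3 hens fed ad libitum (hens M1721, M1723 and M1725) and 3 hens on restricted feeding (hens M1724, M6709 and M6710). All were Arbor Acres broiler breeders killed at 30 wk of age. Each had been raised to the breeder's target weight, and from 22 wk of age the ad libitum hens ate freely of a laying ration (crude protein 17 g per 100 g, energy 11.74 MJ per kg), while the restricted hens stayed on the guide allowance. The other 12 libraries are liver and abdominal fat of the same 6 hens. Hens differ between the feeding groups, so no ovary was sampled under both regimes. Of the 17108 genes in the table, 12871 were above 1 CPM (the count scaled to library size alone) in all 3 libraries of at least 1 group, and these are described here. CPM values given below for genes and lists are also adjusted by the TMM factors of edgeR, except where stated. A gene is called separated when every library of one group lies above every library of the other, and leading when it is separated and its group means differ by a ratio of 2 or more.

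In the laying hen, the liver makes the yolk proteins and yolk lipoproteins, and the growing oocyte takes them up from the blood by receptor. Around each oocyte lies a granulosa layer, which makes proteins of the egg coat such as ZP3, and outside it the theca, which makes sex steroids. Between the small follicles lie fibroblasts, smooth muscle, vessels, nerves and macrophages, and many small follicles are resorbed. In a bulk library, more cells of a type and more RNA per cell cannot be told apart.

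The ovary libraries held 17954518 to 20251546 counts each, so 3 counts correspond to 0.148 to 0.167 CPM, a floor that covers counting error only. The labels give no batch or date. The tissue label was borne out by oocyte and granulosa genes in every library. GDF9, a growth factor of the oocyte, had 137, 94.3 and 59.4 CPM in ad libitum hens M1721, M1723 and M1725, against 95.0, 180 and 226 CPM in restricted hens M1724, M6709 and M6710. The receptor FSHR of granulosa cells had 48.1 to 86.5 CPM in ad libitum hens and 79.4 to 96.2 CPM in restricted hens. Both genes overlapped between the groups.

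The main differences among the ovaries did not follow the feeding groups. Over all tested genes, the log2 CPM of 2 libraries correlated with r from 0.918 to 0.963 within groups (6 pairs) and from 0.897 to 0.978 across groups (9 pairs). The highest of these was between ad libitum hen M1721 and restricted hen M6709, and the lowest between ad libitum hen M1725 and restricted hen M6710. The first principal component took 50.0% of the variance, with scores of -15.4, 37.7 and 36.3 in ad libitum hens M1721, M1723 and M1725, against 30.7, -32.3 and -57.1 in restricted hens M1724, M6709 and M6710. Hens M1723, M1725 and M1724 thus lay on one side, and hens M1721, M6709 and M6710 on the other.

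**Figure D1:**
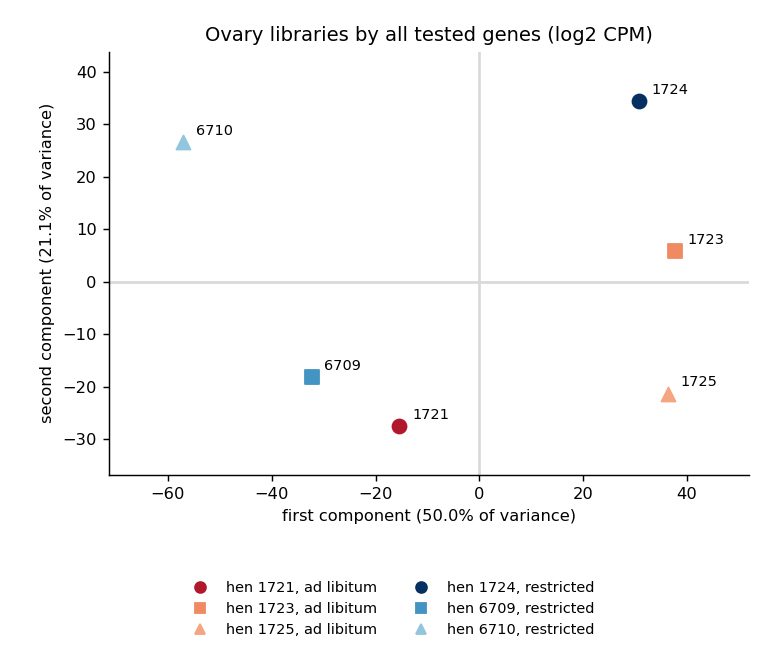
Principal components of the 6 ovary libraries over 12871 genes, from log2 CPM. The axes are the first component (50.0% of the variance) and the second (21.1%), in component scores, and each point is 1 hen (warm colours ad libitum, blue restricted). The groups interleave along the first component, where scores run from 37.7 in hen M1723 to -57.1 in hen M6710.

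Markers of the follicle moved along the same division. The 20 tested oocyte genes summed to 2709, 1443 and 1368 CPM in the ad libitum hens, against 1550, 2589 and 3202 CPM in the restricted hens, again in the order of hen number (M1721, M1723, M1725 and M1724, M6709, M6710, kept below). The 35 cell cycle genes, which mark dividing cells, summed to 5108, 2742 and 3356 CPM in ad libitum hens and to 3152, 5903 and 6186 CPM in restricted hens. Each sum was high in hens M1721, M6709 and M6710 and overlapped between the feeding groups. Some libraries also stood apart by tissue. Adrenal, chromaffin and blood genes were high in ad libitum hen M1723 alone, and smooth muscle genes in restricted hen M1724 alone. The part of these differences in the results below was not tested beyond leaving the hens out.

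No gene passed the edgeR quasi-likelihood test at a Benjamini-Hochberg FDR of 0.1 (0 of 12871 genes, 0.0%), and the smallest adjusted p was 0.878. At an unadjusted p under 0.05 there were 624 genes (4.85%). The likelihood ratio test of edgeR called 24 genes and DESeq2 called 48. All 24 genes of the likelihood ratio test and 46 of the DESeq2 genes were among the leading genes. With 3 hens against 3, an exact permutation test cannot give a p below 0.1, so for single genes the values of every hen are given.

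Separation without regard to size was met by 774 genes higher in ad libitum hens (6.01%) and 451 genes lower in them (3.50%). Complete separation is the outcome that gives the smallest exact permutation p, 0.1. A gene without a feeding effect would thus be separated, in one direction or the other, with a probability of 0.1, so many genes can meet it that way. By group means alone, 6145 of the 12871 genes were higher in ad libitum hens. A ratio of 2 or more was met by 597 genes (4.64%). Leading genes numbered 290, of which 214 were higher in ad libitum hens (1.66%) and 76 lower (0.59%). Their median ratio was 2.67 for the higher and 2.27 for the lower genes. Only 203 of the 290 were above 1 CPM in all 6 libraries. The others passed the filter only through the group where they are high. Members of the gene lists below can pass it in the same way, which favours the direction found. Near the limit, 31 leading genes had a ratio between 2 and 2.1, and 36 separated genes had one between 1.9 and 2. Of the 214 higher genes, 187 had their lowest value in restricted hen M6710, and of the 76 lower genes, 52 had their highest value in the same hen. Without hen M6710, 140 of the higher and 38 of the lower genes kept a ratio of 2, and without hen M1725, 47 of the lower genes kept it. Without hens M1723 and M1724, the libraries with adrenal and smooth muscle genes, 265 of the 290 kept it, a check added after the data were seen. The shares over all genes given here belong beside the counts of each gene list below.

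The leading genes also differed in where else they are expressed. By mean CPM over the 6 hens, 65 of the 76 lower genes (85.5%) had their highest level in ovary, against 8155 of all 12871 genes (63.4%). Of the 214 higher genes, 53 (24.8%) were highest in ovary, 112 (52.3%) in adipose tissue and 49 (22.9%) in liver, while of all tested genes 29.1% were highest in adipose tissue and 7.53% in liver. These levels are CPM by library size, so they compare shares of each library. The leading genes were also lower in ovary than tested genes at large. With TMM factors, the mean of the higher feeding group had a median of 10.5 CPM for the higher genes and 9.53 CPM for the lower genes. Over all tested genes that median was 41.2 CPM, and the shares were not matched by level.

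The higher genes with the widest gap between the groups included genes of macrophages, an interferon-induced gene and the egg coat gene UMOD. ATP6V0D2, a proton pump subunit found in mouse osteoclasts and macrophages, had 7.61, 5.06 and 5.69 CPM in ad libitum hens, against 1.29, 1.25 and 0.300 CPM in restricted hens. SIGLEC1, the macrophage receptor sialoadhesin, had 11.3, 8.76 and 13.5 CPM in ad libitum hens and 3.59, 3.94 and 0.601 CPM in restricted hens. In both genes the lowest ad libitum hen was over every restricted hen, by 3.91 times for ATP6V0D2 and 2.22 times for SIGLEC1. IFIT5, an RNA-binding protein induced by interferon, had 25.3, 50.9 and 24.7 CPM in ad libitum hens, against 6.88, 10.4 and 4.01 CPM in restricted hens (log2 fold change 2.24 ± 0.45, SE). RGS1, a brake on chemokine signals in leukocytes, had 13.6, 17.7 and 20.9 CPM in ad libitum hens and 6.35, 5.19 and 3.35 CPM in restricted hens. The adjusted p of every one of these genes was 0.878 in the edgeR test.

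SERPINB2, an inhibitor of the plasminogen activator urokinase, had the smallest p of the named genes. It had 31.6, 52.8 and 62.0 CPM in ad libitum hens, against 16.4, 13.1 and 15.6 CPM in restricted hens, with a log2 fold change of 1.70 ± 0.28 (SE, unadjusted p = 0.00046 in the edgeR test). Urokinase itself, PLAU, was also separated, with 22.0, 18.1 and 27.5 CPM in ad libitum hens against 11.1, 9.94 and 6.86 CPM in restricted hens. MAP3K8, a kinase that acts below Toll-like receptors in mammals, had 7.57, 6.99 and 7.68 CPM in ad libitum hens and 3.30, 3.89 and 2.70 CPM in restricted hens. Its ad libitum values spread by 0.371 CPM (SD, n = 3), the narrowest of the 12 higher genes in CPM. SLC46A3, a transporter of the lysosome membrane, averaged 41.3 ± 3.18 CPM in ad libitum hens and 13.01 ± 7.38 CPM in restricted hens (SD, n = 3 each). The other named higher genes were LINC00954, LOC415616 and LOC419851. LINC00954 (ratio 6.001) had 4.95, 8.51 and 2.05 CPM in ad libitum hens, against 0.824, 1.008 and 0.751 CPM in restricted hens. In the livers of the same hens it had 221 to 418 CPM. LOC415616 (ratio 3.47) had 8.05, 10.5 and 11.4 CPM against 3.24, 4.27 and 1.15 CPM. LOC419851 (ratio 3.74) had 5.67, 18.9 and 5.52 CPM against 3.001, 2.54 and 2.503 CPM, and its ratio was 2.09 without hen M1723. LOC693258, among the 10 smallest p, had 3.78, 2.73 and 1.02 CPM in ad libitum hens and 0.294, 0.384 and 0.250 CPM in restricted hens.

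**Figure D2:**
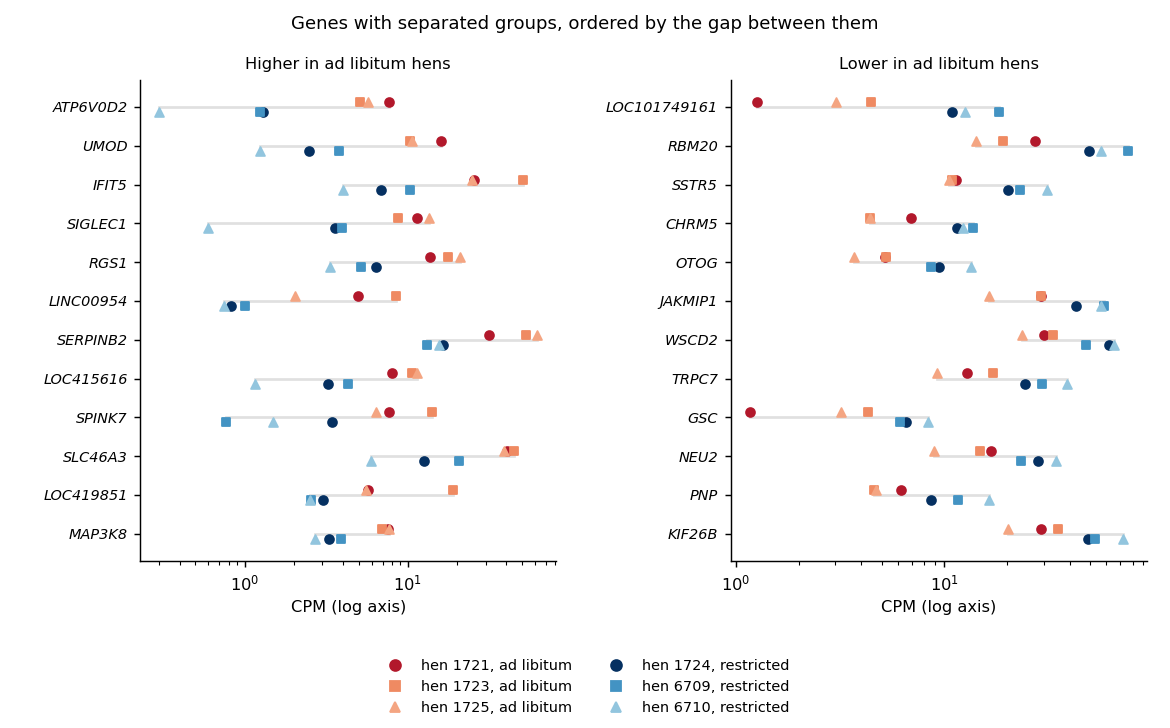
CPM (log axis) of the 12 higher and 12 lower leading genes with the widest gap between groups and at least 5 CPM in the higher group, with 1 point per hen (ad libitum drawn above restricted in each row). In every row the points of the groups do not overlap, as the rule demands. Restricted hen M6710 is the lowest point in 10 of the 12 rows on the left and the highest in 8 of the 12 on the right.

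Genes of lists that mark leukocytes or are active in them were mostly higher in ad libitum hens. Over 9 lists of macrophage, phagosome, lysosome, complement, antigen presentation, T cell, B cell, granulocyte and cytokine genes, 103 of 118 tested genes were higher in ad libitum hens, 39 were separated higher and 1 lower, and 31 were leading. Their median log2 fold change was 0.79, against -0.02 over all tested genes, and 43 had an unadjusted p under 0.05, none of them passing FDR 0.1. Some of these genes could be named only because a table ordered by ovary p listed them. Among the 87 named from elsewhere, 74 were higher, 26 separated higher, 1 separated lower and 27 had a p under 0.05, with a median of 0.62. Among all 5142 genes named from elsewhere, 46.4% were higher, 6.40% separated higher, 3.17% separated lower and 5.76% had a p under 0.05. Members such as ATP6V0D2 passed the filter of 1 CPM only through the ad libitum hens, which favours a higher mean there. Their number among the 118 was not counted. The 118 are called leukocyte genes below for short, though members such as C7, CD36 and CTSB are not particular to leukocytes.

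Restricted hen M6710 held the lowest value of 88 of the 118 leukocyte genes, against 3352 of all 12871 genes. Without it, 97 of the 118 were still higher in ad libitum hens, the median log2 fold change was 0.56, and 19 of the 31 leading genes kept a ratio of 2. Without any other single hen the median lay between 0.64 and 1.02. The summed macrophage list was 806, 1024 and 1360 CPM in ad libitum hens, against 472, 676 and 260 CPM in restricted hens. These sums did not overlap, and hens M1721 and M6709 were the nearest.

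All 18 macrophage genes were higher on average in ad libitum hens, 8 of them separated and 7 leading, with a median log2 fold change of 1.23. Without hen M6710, 4 of those 7 kept a ratio of 2, with a median of 0.84. All 13 macrophage genes named from elsewhere were higher, 5 of them leading, with a median of 1.22. HAVCR1, of a receptor family that in mammals binds dying cells, had 11.1, 18.6 and 16.8 CPM in ad libitum hens, against 5.77, 6.67 and 3.76 CPM in restricted hens. SPI1, the transcription factor of the myeloid lineage, had 47.0, 49.3 and 59.1 CPM in ad libitum hens and 17.9, 30.3 and 7.66 CPM in restricted hens. C1QA, a subunit of the complement starter C1q that macrophages make, had 32.0, 56.8 and 59.1 CPM in ad libitum hens and 26.3, 24.9 and 10.1 CPM in restricted hens. The list was not uniform: the scavenger receptor MARCO had 20.8, 36.7 and 70.7 CPM in ad libitum hens against 28.5, 34.0 and 39.5 CPM in restricted hens, and overlapped.

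Lysosome genes and genes of lipid-laden macrophages were also higher as a group. All 22 tested genes had a higher mean in ad libitum hens, with 11 separated, 6 leading and a median log2 fold change of 0.88. Without hen M6710 the median was 0.58 and without hen M1725 it was 0.60, and 4 of the 6 kept a ratio of 2 in either case. All 18 list members named from elsewhere were higher, 3 of them leading, with a median of 0.80. GPNMB, a glycoprotein of lipid-laden macrophages, had 44.3, 16.2 and 51.1 CPM in ad libitum hens, against 8.12, 12.1 and 1.001 CPM in restricted hens. LGALS3, or galectin-3, had 11.9, 18.4 and 33.7 CPM in ad libitum hens and 7.002, 8.74 and 3.81 CPM in restricted hens. Proteases of the lysosome were among the abundant members. CTSC had 161, 153 and 232 CPM in ad libitum hens, against 87.0, 106 and 68.5 CPM in restricted hens, and CTSB had 583, 526 and 967 CPM against 393, 437 and 222 CPM. Both were separated, CTSB at a ratio under 2. LIPA, the lysosomal lipase, and PLIN2, a coat protein of lipid droplets, were separated as well, with log2 fold changes of 0.90 and 0.74. In the phagosome list 15 of 18 genes were higher, 5 of them leading (ATP6V0D2, NCF1, NCF4, CYBB and CD36), and the median of 0.66 was 0.43 without hen M6710. Among its 15 genes named from elsewhere, 12 were higher and 2 leading, with a median of 0.57. NCF4, a subunit of the phagocyte NADPH oxidase, had 6.79, 9.72 and 10.6 CPM in ad libitum hens and 3.82, 4.22 and 1.40 CPM in restricted hens.

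Complement genes summed to 1319, 1857 and 1529 CPM in ad libitum hens, against 951, 917 and 441 CPM in restricted hens. Of the 16 tested, 13 were higher, 5 leading, and 1 (MASP2) separated lower. Without hen M6710, 3 of the 5 kept a ratio of 2, and the median log2 fold change was 0.60, against 0.99 with it. The most abundant was C7, a part of the membrane attack complex, with 595, 816 and 558 CPM in ad libitum hens and 316, 334 and 164 CPM in restricted hens (log2 fold change 1.28 ± 0.33, SE). The C3a receptor C3AR1 of myeloid cells had 11.2, 19.1 and 14.8 CPM in ad libitum hens against 5.41, 7.83 and 1.20 CPM in restricted hens. Both genes were separated. Among the 11 complement genes named from elsewhere, 8 were higher and 3 leading, with a median log2 fold change of 0.47.

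Lymphocyte genes lay higher as well, on fewer members. Of 10 B and plasma cell genes, 8 were higher and 3 leading, of which 1 kept a ratio of 2 without hen M6710. Among the 8 named from elsewhere, 7 were higher and 3 leading. JCHAIN, the joining chain of secreted antibodies, had 732, 1026 and 549 CPM in ad libitum hens, against 362, 270 and 98.3 CPM in restricted hens. The antibody light chain gene IGLL1 had 1280, 1865 and 1070 CPM in ad libitum hens and 1151, 579 and 342 CPM in restricted hens, which overlapped through restricted hen M1724. All 6 T cell genes were higher and 2 were leading, the cytokine receptors IL7R and IL2RG, of which 1 kept a ratio of 2 without hen M6710 (median log2 fold change 0.47, against 0.82 with it). All 4 T cell genes named from elsewhere were higher and 1 was leading, with a median of 0.57. CD3E, which defines T cells, had 15.4, 35.0 and 30.9 CPM in ad libitum hens and 24.01, 18.9 and 9.51 CPM in restricted hens, and overlapped. Of 12 antigen presentation genes all were higher, 3 separated and 2 leading, of which 1 kept a ratio of 2 without hen M6710 or without hen M1725, and the median of 0.74 was 0.43 without hen M1723. All 6 of these genes named from elsewhere were higher and 1 was leading, with a median of 0.62. Of 13 cytokine and receptor genes 10 were higher and 4 leading, with a median of 0.52 (0.30 without hen M6710 and 0.94 without hen M1724). Among the 10 named from elsewhere, 8 were higher and 2 leading, with a median of 0.40. CXCR4, the receptor of the chemokine CXCL12, had 36.8, 34.7 and 57.2 CPM in ad libitum hens, against 10.3, 21.0 and 10.3 CPM in restricted hens, while CXCL12 itself had 120, 142 and 132 CPM against 223, 149 and 79.4 CPM and overlapped.

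**Figure D3:**
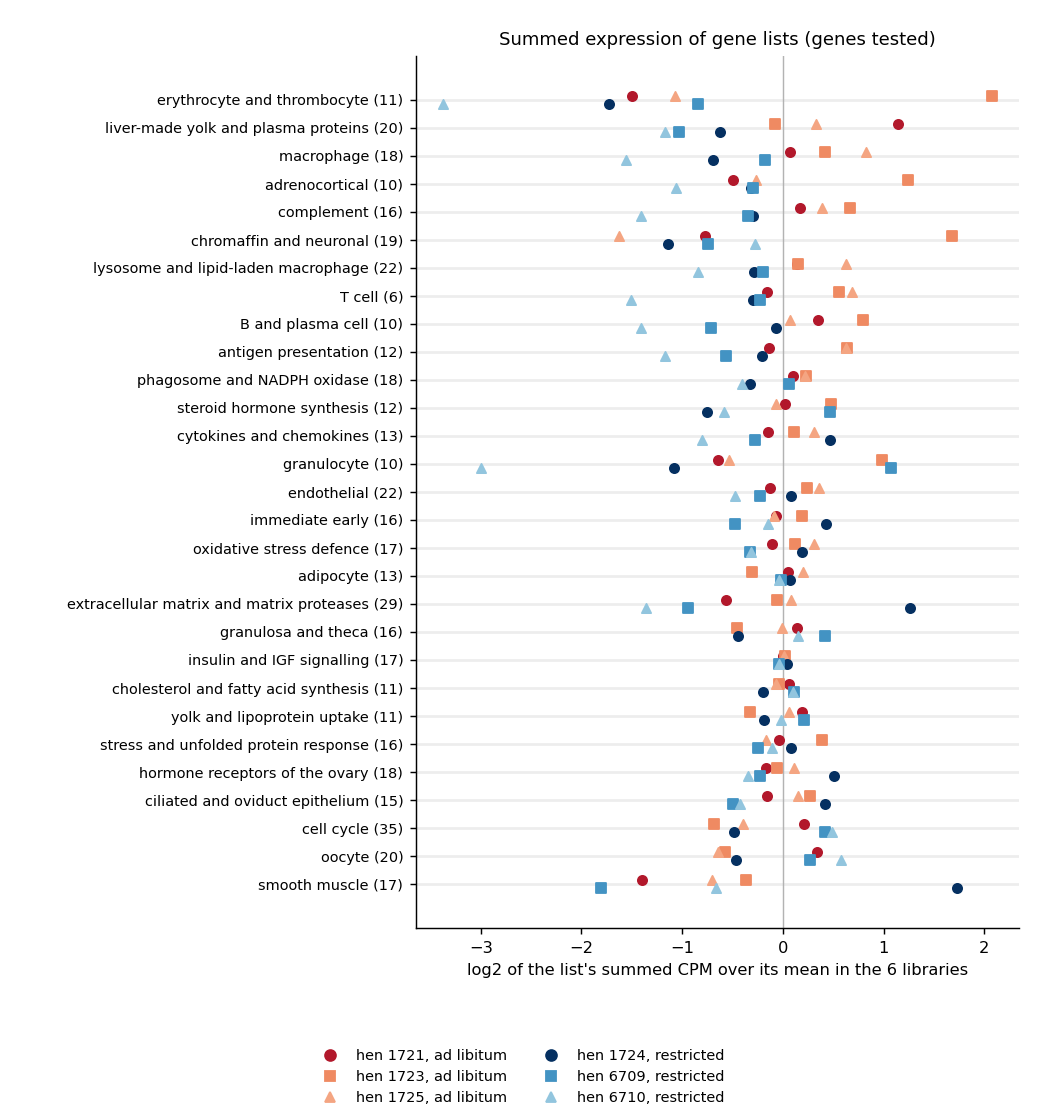
Summed CPM of 29 gene lists in each ovary, as log2 of the sum over its mean in the 6 libraries, with 1 point per hen and ad libitum drawn above restricted. Lists run from the highest median log2 fold change (top) to the lowest, with the number of tested genes in brackets. Macrophage sums separate the groups (806 CPM or more in ad libitum hens, 676 CPM or less in restricted hens), whereas blood, chromaffin and smooth muscle sums are set by 1 hen each.

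Of 22 endothelial genes, which mark vessels, 19 were higher in ad libitum hens, with 1 separated (the VEGF receptor KDR), none leading, none with a p under 0.05, and a median log2 fold change of 0.36. Over all tested genes 6.01% were separated higher. The median was 0.63 without hen M1724 and 0.18 without hen M6710. Of 29 genes of the matrix and its proteases, 15 were higher with all hens (median log2 fold change 0.12). Without hen M1724 all 29 were higher (median 1.20), so their direction rested on that library. Among the 26 named from elsewhere, 13 were higher and 4 leading with all hens, with a median of -0.054. The 4 leading members were FBLN1, a matrix glycoprotein, and the proteases PLAU, MMP7 and MMP10. MMP10 had 26.04, 25.97 and 84.96 CPM in ad libitum hens, against 9.41, 24.1 and 2.75 CPM in restricted hens, so that its gap was 1.08 times. MMP7 was low throughout, with 2.67, 1.06 and 1.19 CPM in ad libitum hens and 0.294, 0.528 and 0.1001 CPM in restricted hens.

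Of the 5 egg coat genes tested, ZP3 and UMOD were higher in ad libitum hens and separated, while ZP2, ZP4 and ZPAX overlapped, with log2 fold changes of -0.38, -0.63 and -0.34. ZP3 had 337, 71.4 and 166 CPM in ad libitum hens, against 33.5, 54.3 and 34.1 CPM in restricted hens (log2 fold change 2.24 ± 0.54, SE). UMOD, which RefSeq also lists as ZPD and which is an egg coat protein of granulosa cells in birds, had 16.1, 10.4 and 10.6 CPM in ad libitum hens and 2.47, 3.79 and 1.25 CPM in restricted hens (log2 fold change 2.30 ± 0.46, SE). Among granulosa and theca genes, 2 were leading. INHA, the alpha subunit of inhibin, had 1.79, 3.85 and 1.54 CPM in ad libitum hens, against 0.118, 0.288 and 0 CPM in restricted hens, of which 2 lay at or under the floor of 3 counts. NR5A2, a nuclear receptor that drives steroid genes in mammals, had 7.57, 10.6 and 6.94 CPM in ad libitum hens and 3.71, 4.22 and 2.80 CPM in restricted hens.

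Most other oocyte genes did not share that direction, and the other granulosa and theca genes were divided. The oocyte list includes ZP3 and UMOD, although granulosa cells make both, and no other gene of the list was leading. Of its 20 genes 17 were lower in ad libitum hens, with a median log2 fold change of -0.58. That median was -0.95 without hen M1721 and -0.34 without hen M6710 or hen M1725, and 17 genes were lower without any 1 hen. Among the list's 18 genes named from elsewhere, 2 were higher and 1 leading, with a median of -0.58. ZAR1L, an oocyte RNA-binding protein, was separated lower, with 178, 144 and 82.4 CPM in ad libitum hens and 182, 233 and 313 CPM in restricted hens. Of 16 granulosa and theca genes 9 were higher, with a median of 0.10 (-0.0081 without hen M6710). Among the 14 named from elsewhere, 7 were higher and 1 leading, with a median of -0.0064. AMH, the hormone of small follicles, had 777, 423 and 585 CPM in ad libitum hens against 473, 1069 and 700 CPM in restricted hens, and CYP19A1, which makes oestrogen in the theca of birds, had 259, 189 and 293 CPM against 96.6, 398 and 69.0 CPM. Both overlapped. The oocyte's yolk receptor VLDLR likewise overlapped, with 1053, 457 and 743 CPM in ad libitum hens and 423, 1186 and 1034 CPM in restricted hens.

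Steroid synthesis genes were higher on average, but 4 of the 12 rested on 1 hen. STAR, which brings cholesterol into mitochondria, had 85.6, 474 and 82.6 CPM in ad libitum hens, against 36.3, 139 and 26.6 CPM in restricted hens. HSD3B2 had 62.1, 370 and 40.4 CPM in ad libitum hens and 13.1, 58.9 and 14.5 CPM in restricted hens. Both were highest in hen M1723, where CYP21A1, an enzyme of the adrenal cortex, had 131 CPM against 1.65 to 4.04 CPM in the other hens. The theca enzyme CYP17A1 went the other way, with 471, 151 and 353 CPM in ad libitum hens and 235, 727 and 296 CPM in restricted hens. The list's median log2 fold change was 0.57 with all hens, 0.22 without hen M1723, 0.19 without hen M1725, 0.31 without hen M6710 and 1.41 without hen M6709. Among its 9 genes named from elsewhere, 6 were higher, with a median of 0.33. No steroid gene was separated.

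Among 18 receptors for hormones, 2 were leading. THRB, a thyroid hormone receptor, had 3.30, 7.09 and 9.95 CPM in ad libitum hens, against 2.65, 2.88 and 2.50 CPM in restricted hens. ACVR2B, a receptor for activin, was lower, with 1.60, 3.54 and 2.22 CPM in ad libitum hens and 5.83, 4.71 and 6.16 CPM in restricted hens. Both are low in these libraries. None of the 14 list members named from elsewhere was leading. The list's median log2 fold change was -0.08, with 7 genes higher, but 0.41 with 11 higher without hen M1724 and 0.044 with 9 higher without hen M1721.

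Messages of liver proteins were present in every ovary and higher on average in ad libitum hens. Of 20 tested genes 16 were higher, 11 had an unadjusted p under 0.05 and 3 were leading, with a median log2 fold change of 1.57. Over all 12871 tested genes 6145 were higher, 4.85% had a p under 0.05 in the edgeR test and 1.66% were leading higher. The 20 genes summed to 1399, 598 and 796 CPM in ad libitum hens, against 410, 308 and 281 CPM in restricted hens, without overlap. VTG3, a vitellogenin, had 26.1, 2.08 and 13.5 CPM in ad libitum hens, against 3.88, 0.528 and 1.30 CPM in restricted hens. PIT54, a plasma protein of birds that binds haemoglobin, had 11.9, 1.37 and 6.82 CPM in ad libitum hens and 2.59, 0.192 and 0.751 CPM in restricted hens. Both were high in hens M1721 and M1725 and overlapped through hen M1723. VTG3 and PIT54 also passed the filter of 1 CPM only through the ad libitum hens, which favours a higher mean there. How many of the 20 genes did so was not counted, and the counts and median of the list carry that limit. The leading members were TTR, a carrier of thyroid hormone, with 18.7, 5.57 and 9.16 CPM in ad libitum hens against 3.41, 3.98 and 1.55 CPM in restricted hens, TF, the transferrin of plasma and egg white, and prothrombin, F2. In the livers of the same hens VTG3 had 6727 to 15211 CPM, so ovary levels were a small fraction of it. Without hen M1721 the list's median was 0.93.

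Of 15 ciliated and oviduct genes 12 were lower in ad libitum hens, 3 of them separated, with a median log2 fold change of -0.35 (-0.18 without hen M6710 and -0.60 without hen M1721). The 2 leading higher members were TF and SPINK7, and the separated lower ones were EHF and the cilium genes RSPH4A and CCDC40. Of the list's 13 genes named from elsewhere, 2 were higher and 2 separated lower, with a median of -0.35. SPINK7, which RefSeq also lists as ovomucoid, had 7.66, 14.1 and 6.43 CPM in ad libitum hens, against 3.41, 0.768 and 1.502 CPM in restricted hens. In the livers of the same hens SPINK7 had 2956 to 7259 CPM and TF 11753 to 17954 CPM, so neither is particular to the oviduct. AVD, or avidin, had 4.12, 8.61 and 21.5 CPM in ad libitum hens and 5.001, 2.54 and 0.601 CPM in restricted hens, and overlapped. Of 17 oxidative defence genes 13 were higher, 6 separated and 1 leading, with a median log2 fold change of 0.32 (0.54 without hen M1724). Among the 15 named from elsewhere, 11 were higher, 5 separated and 1 leading, with a median of 0.32. The leading gene was GSTA3, a glutathione transferase, with 62.4, 60.2 and 96.2 CPM in ad libitum hens against 24.2, 34.5 and 18.4 CPM in restricted hens (log2 fold change 1.504 ± 0.30, SE). The separated members at lower ratios were SOD3, HMOX1, TXNRD1, NFE2L2 and CAT, with log2 fold changes of 0.45 to 0.73.

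The named leading lower genes included receptors, a channel and regulators. RBM20, a splicing factor known in mammals for titin, had 27.2, 19.1 and 14.2 CPM in ad libitum hens, against 49.4, 75.9 and 56.2 CPM in restricted hens (log2 fold change -1.58 ± 0.29, SE). SSTR5, a somatostatin receptor, had 11.4, 10.9 and 10.5 CPM in ad libitum hens and 20.2, 23.1 and 31.0 CPM in restricted hens. The spread of SSTR5 in ad libitum hens was 0.440 CPM (SD, n = 3). CHRM5, a muscarinic acetylcholine receptor, had 6.89, 4.40 and 4.38 CPM in ad libitum hens and 11.5, 13.7 and 12.3 CPM in restricted hens. TRPC7, a cation channel, had 12.9, 17.1 and 9.27 CPM in ad libitum hens against 24.3, 29.5 and 38.9 CPM in restricted hens. All of these groups were apart by at least 1.42 times.

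LOC101749161 had the widest gap of the lower genes, 2.44 times, with 1.26, 4.46 and 3.01 CPM in ad libitum hens and 10.9, 18.2 and 12.6 CPM in restricted hens. JAKMIP1, which binds microtubules, averaged 24.9 ± 7.39 CPM in ad libitum hens and 52.4 ± 8.40 CPM in restricted hens, and WSCD2 averaged 29.0 ± 4.96 CPM and 58.2 ± 8.97 CPM (SD, n = 3 each). GSC, a homeobox factor of the embryo's organizer, had 1.16, 4.30 and 3.18 CPM in ad libitum hens and 6.53, 6.10 and 8.31 CPM in restricted hens. OTOG, NEU2, PNP and KIF26B had ratios of ad libitum over restricted between 0.423 and 0.484. EHF, an epithelial transcription factor and the 1 leading lower gene of the ciliated and oviduct list, had 7.37, 10.3 and 5.86 CPM in ad libitum hens against 14.2, 19.7 and 20.9 CPM in restricted hens. In liver, SSTR5, RBM20, CHRM5 and TRPC7 were at or under 0.506 CPM in each of the 6 hens.

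Cell cycle genes were lower on average in ad libitum hens in 33 of 35 cases, with a median log2 fold change of -0.40 (-0.72 without hen M1721 and -0.21 without hen M6710), but 1 was separated and none leading. The separated gene was CCNE2, a cyclin of S phase entry, with 21.0, 19.2 and 16.1 CPM in ad libitum hens against 22.8, 37.5 and 34.4 CPM in restricted hens. CCNE2 was named only through the table ordered by ovary p. Over all tested genes 3.5% were separated lower. CDK1, the kinase of mitosis, had 145, 77.6 and 95.8 CPM in ad libitum hens and 120, 195 and 211 CPM in restricted hens, and overlapped through hens M1721 and M1724.

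Of the 597 genes with a ratio of 2 or more, 170 (28.5% of them, 1.32% of all tested genes) rested on 1 hen: their ratio went under 1.5 when that hen was left out. Hen M1723 accounted for 90 of these, hen M1724 for 46, hen M6710 for 19, hen M1725 for 10, hen M1721 for 4 and hen M6709 for 1. Of the 290 leading genes, 7 were among them, including MAT1A, ENO2 and FAM180A through hen M1723 and CCK and LOC100859682 through hen M6710.

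**Figure D4:**
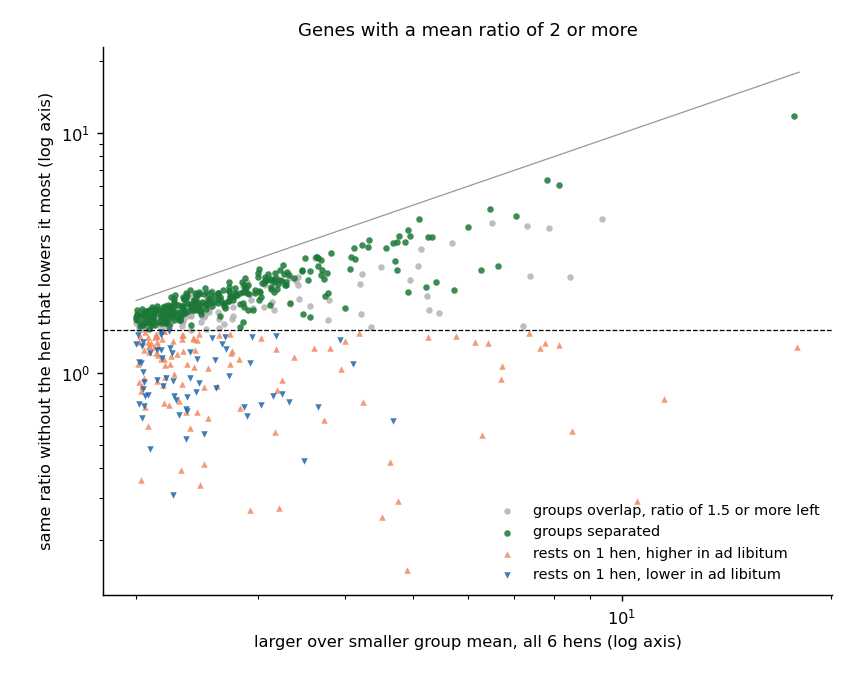
Ratio of the larger over the smaller group mean for the 597 genes with a ratio of 2 or more, with all 6 hens (x, log axis) and without the hen that lowers it most (y, log axis). Each point is a gene, the dashed line marks 1.5 and the solid line equality. The 170 genes under the dashed line rest on 1 hen, among them genes with ratios as high as 17.9.

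In ad libitum hen M1723, 36 genes reached at least 5 times the next highest library. CYP21A1 had 2.52, 131 and 4.04 CPM in ad libitum hens, against 1.65, 3.41 and 2.65 CPM in restricted hens. MC2R, the receptor for corticotropin on adrenal cortex cells, had 0.436, 27.8 and 0.626 CPM in ad libitum hens and 1.18, 2.16 and 3.05 CPM in restricted hens. Genes of chromaffin cells and neurons behaved alike. CHGA, a protein of secretory granules, had 76.7, 2007 and 46.9 CPM in ad libitum hens, against 80.7, 97.1 and 161 CPM in restricted hens, and DBH, which makes noradrenaline, had 25.6, 171 and 8.87 CPM against 11.8, 16.3 and 44.7 CPM. GCH1, which makes a cofactor of catecholamine synthesis, had 37.3 CPM in hen M1723 and 0.9602 to 2.95 CPM in the other hens. CHGB, SST and GAL were the other genes named for this hen. Without hen M1723, 2 of 19 chromaffin and neuronal genes were higher in ad libitum hens, with a median log2 fold change of -0.49, against 13 of 19 and 0.96 with it. Among the 11 named from elsewhere, 5 were higher with all hens, with a median of -0.09.

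Blood genes were high in the same library. The haemoglobin gene HBAA had 248, 3762 and 390 CPM in ad libitum hens, against 191, 470 and 55.8 CPM in restricted hens. The erythrocyte and thrombocyte list had 8 of 11 genes resting on hen M1723. Without that hen the list's median log2 fold change was 0.39, against 1.91 with it. Its lowest sum, 203 CPM, was in restricted hen M6710, the hen with the lowest leukocyte sums.

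Restricted hen M1724 carried the smooth muscle genes. All 17 of them were lower on average in ad libitum hens, with a median log2 fold change of -1.01, and without hen M1724 there were 15 of 17 higher in ad libitum hens, with a median of 0.35. TAGLN, an actin-binding protein of smooth muscle, had 405, 1108 and 883 CPM in ad libitum hens, against 6476, 238 and 1060 CPM in restricted hens. ELN, or elastin, had 53.1, 127 and 107 CPM in ad libitum hens and 810, 59.1 and 84.8 CPM in restricted hens. ACTC1, CHRDL2, C1QTNF3 and C1ORF95 showed the same single high library. The matrix genes, given above, moved with the same library.

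The remaining single-hen genes were fewer. In restricted hen M6710 these were ASMT, an enzyme of melatonin synthesis, with 6.06 CPM there and 0.679 to 1.67 CPM in the other hens, and CCK, TSPAN1, AMN and ATP7B. In ad libitum hen M1725 they included FABP4, a fatty acid carrier of fat cells and macrophages, with 51.7, 19.6 and 116 CPM in ad libitum hens against 9.003, 59.0 and 9.11 CPM in restricted hens, and RBP7, TGM4, PTX3 and LOC100857375. In ad libitum hen M1721 they were HKDC1, FGB, CYP2C23a and NCAM2.

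**Figure D5:**
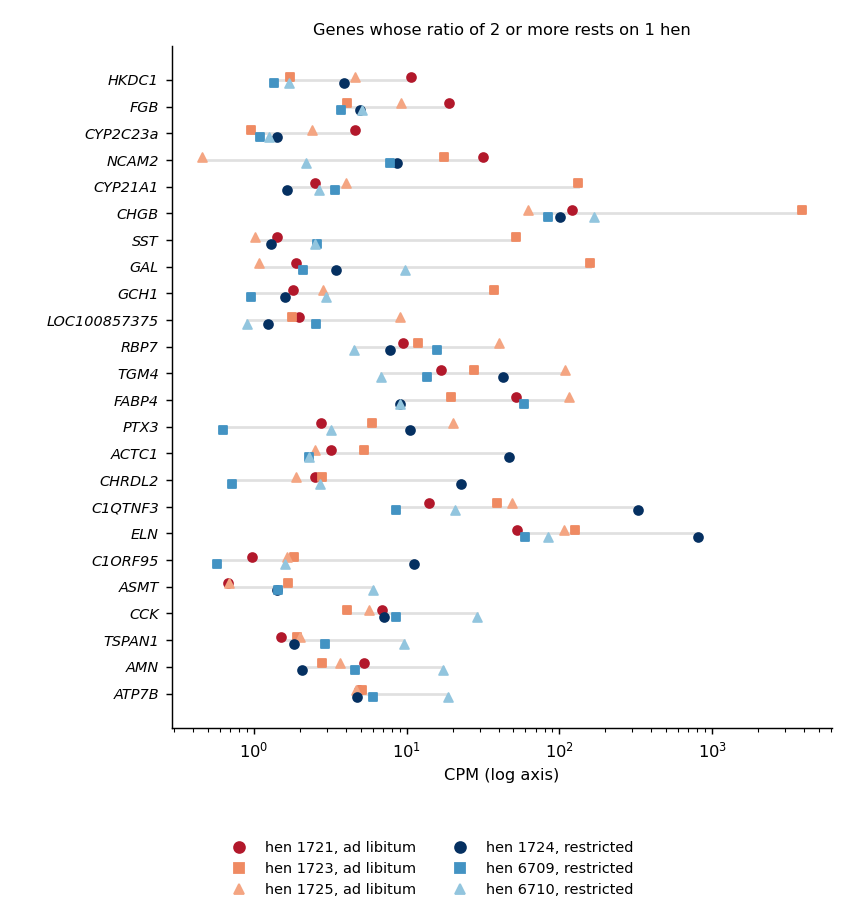
CPM (log axis) of the genes whose ratio of 2 or more rests on 1 hen, up to 5 per hen, with 1 point per hen and ad libitum drawn above restricted. From the top the genes rest on ad libitum hens M1721, M1723 and M1725 and then on restricted hens M1724 and M6710. CYP21A1 stands farthest from its next highest library, 32.6 times over it in hen M1723.

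Several lists chosen for feeding and metabolism differed little. None of 17 insulin and IGF genes was separated, 10 were higher, and the median log2 fold change was 0.07. None of 11 cholesterol and fatty acid synthesis genes was separated, with a median of 0.03. FASN, or fatty acid synthase, had 365, 361 and 419 CPM in ad libitum hens, against 342, 393 and 386 CPM in restricted hens. Of 11 yolk and lipoprotein uptake genes 6 were higher and 1 leading (CD36), with a median of 0.01. CD36 was named only through the table ordered by ovary p. Of 13 adipocyte genes 9 were higher and none separated, with a median of 0.12. ADIPOQ, or adiponectin, had 26.2, 76.8 and 63.0 CPM in ad libitum hens and 243, 13.9 and 55.1 CPM in restricted hens. Stress and unfolded protein genes had a median of -0.05 and immediate early genes, which respond to handling within minutes, one of 0.35 (-0.019 without hen M1723, 0.12 without hen M6709 and 0.67 without hen M1724), with 1 separated gene (SESN2, lower) between the lists. When 1 hen was left out, the medians lay between -0.018 and 0.11 for insulin and IGF genes, -0.033 and 0.057 for cholesterol and fatty acid synthesis, -0.074 and 0.084 for uptake genes, 0.0073 and 0.24 for adipocyte genes, and -0.077 and 0.066 for stress genes. These values do not show that the groups were alike, since the spread between hens was wide.

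The leading genes were compared with liver and adipose tissue of the same hens. Of 161 leading higher genes tested in liver, 122 were higher in ad libitum hens, against 5131 of all 10339 genes tested there. Of the 161, 35 were separated higher and 3 separated lower, where 10.2% of all genes tested in liver were separated higher and 10.9% lower. Of 190 tested in adipose tissue, 132 were higher, against 6190 of all 11914, with 22 separated higher and 6 separated lower, where 4.12% of all genes tested there were separated higher and 4.65% lower. Of the 76 lower genes, 12 were tested in liver, 7 of them lower, none separated lower and 2 separated higher, and 26 in adipose tissue, 19 of them lower, 5 separated lower and none separated higher. The same hens were sampled, so these are not independent animals. SPINK7 went the other way in adipose tissue, with 7.61, 7.47 and 14.1 CPM in adipose tissue of ad libitum hens, against 17.4, 340 and 35.9 CPM in that of restricted hens. The difference of its fold changes between ovary and adipose tissue had an unadjusted p of 0.00092 and an adjusted p of 0.982 (edgeR interaction).

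Across all genes, no feeding effect in ovary differed from that in liver (0 of 13139 genes, smallest adjusted p 0.651, 883 genes at an unadjusted p under 0.05) or in adipose tissue (0 of 13233, smallest adjusted p 0.982, 614 genes) by the edgeR interaction test. A p above the threshold does not show that the effects were the same.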

How the data were processed

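RNA of ovarian stroma with small follicles was sequenced as paired reads from 6 hens. After a filter on adapters and quality, reads were mapped by the authors to Gallus_gallus-5.0 with TopHat2 2.1.1 and Bowtie2 2.0.6, and the authors deposited raw counts per Ensembl gene. The strand, multiple mapping and mate settings are not given in the sources used here, so reads of near-identical genes (vitellogenins, haemoglobins) or of overlapping genes may be split between them. All columns were used.

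Genes above 1 CPM in all 3 libraries of a group were tested with edgeR 4.0.16 (quasi-likelihood, TMM, Benjamini-Hochberg FDR 0.1) in R 4.3.3, which was tested on simulated data. Each SE is the absolute log2 fold change divided by √F. DESeq2 1.42.0 was an alternative. P-values of the ovary test set the group difference against the spread between hens. The interaction fit without a block treats both tissues of a hen as independent. Tables and plots were made in Python 3.11.15.

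The members, 29 gene lists and tests were chosen with earlier results of these data known. Named genes were the 12 per direction with the widest gap among leading genes with a symbol and at least 5 CPM in the higher group, the 10 with a symbol and the smallest p, up to 5 per hen whose ratio of 2 or more rests on that hen, the leading members of the lists, and up to 4 abundant others per list. Any other gene named, such as further list members shown for their overlap or single separated genes, was chosen after its values were seen. Symbols came from the identifier and symbol pairs of the study's tables and RefSeq synonyms (5562 of 12871 genes, 420 of them only through a table ordered by ovary p). No sequence or position is given.

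The hens link tissues, so the interaction was also fitted with the hen as a block. After removal of group means, ovary and adipose libraries of a hen correlated at 0.00591 to 0.243, and ovary and liver libraries at -0.149 to 0.143.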

Additional observations from a re-analysis of the deposited data

How the results depend on the processing

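Settings were compared one at a time. No gene passed the quasi-likelihood test at FDR 0.1 under another scaling, filter or set of libraries or without any hen, while the likelihood ratio test called 24 and DESeq2 called 48. Unadjusted p under 0.05 was met by 255 genes without hen M6710 and 2121 without hen M1724, against 624 with all. The 290 separated genes with a ratio of 2 became 522 with no filter on low values and 562 at a ratio of 1.5. They were 203 when 1 CPM was required in all 6 libraries. When 1 hen was left out they lay between 207 (without hen M6710) and 894 (without hen M1724), where separation of 2 hens from 3 is easier to meet. Without hens M1723 and M1724, a choice made after seeing the data, they were 919 and no gene was called. Genes resting on 1 hen were 428, against 170, when a ratio under 2 replaced one under 1.5. No paired analysis was possible within ovary because no hen was on both regimes. With the hen as a block, the interaction called 0 genes against liver and 0 against adipose tissue (805 and 593 at an unadjusted p under 0.05). Without the block the interaction with liver gave 0 to 1 genes when 1 hen was left out, the 1 without hen M6709. All 26 named genes chosen for their gap or p kept their sign in every fit. The groups of these genes were separated, which nearly fixes the sign when 1 hen is left out. Their result thus follows largely from how they were chosen. Of all 131 named genes, many of the rest also separated, 106 kept their sign in every fit. The other 25 changed sign when 1 hen was left out, with log2 fold changes of ACTC1 -2.74 to 0.67, ADIPOQ -1.43 to 0.70, AMH -0.57 to 0.022, AMN -1.47 to 0.22, AvBD1 -2.34 to 4.48, C1ORF95 -2.11 to 0.45, C1QTNF3 -2.35 to 1.24, CHGA -0.87 to 3.19, CHGB -0.37 to 4.07, CHRDL2 -2.41 to 0.50, CXCL12 -0.50 to 0.20, CYP17A1 -0.74 to 0.29, CYP19A1 -0.0019 to 1.58, DBH -0.49 to 2.29, ELN -2.23 to 0.42, FASN -0.057 to 0.069, GAL -1.77 to 4.27, LECT2 -2.36 to 3.80, MARCO -0.26 to 0.65, MC2R -2.002 to 2.72, PTX3 -0.16 to 2.35, S100A9 -1.60 to 4.82, SST -0.81 to 3.62, TAGLN -2.24 to 0.32 and VLDLR -0.56 to 0.045. FASN also changed sign in the fit of all 18 libraries (-0.017). The cause was not tested.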

Other observations

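Heterophil genes, the granulocyte products of birds, divided the ovaries in another way that follows neither the feeding groups nor most leukocyte genes above. The granulocyte list was itself 1 of the 9 lists counted there. Of its 10 genes 6 were higher in ad libitum hens, with a median log2 fold change of 0.42. That median was -0.53 without hen M1723 and 3.06 without hen M6709. Among the list's 8 genes named from elsewhere, 4 were higher and 1 leading, with a median of -0.025. LECT2, an antibacterial protein of heterophils, had 112, 635 and 1.42 CPM in ad libitum hens M1721, M1723 and M1725, against 34.4, 835 and 1.55 CPM in restricted hens M1724, M6709 and M6710. AvBD1, a defensin, had 44.9, 216 and 1.59 CPM in ad libitum hens and 2.001, 344 and 5.76 CPM in restricted hens. S100A9, a calcium-binding protein of granulocytes, had 31.8, 136 and 1.36 CPM in ad libitum hens and 1.29, 146 and 2.65 CPM in restricted hens. Each was highest in hens M6709 and M1723 and near its lowest in hen M1725, whose macrophage sum was the highest of the 6. CSF3R, a receptor of granulocytes and macrophages, was the 1 leading gene of the 10 on the granulocyte list, with 23.1, 39.9 and 42.3 CPM in ad libitum hens and 10.1, 18.9 and 3.45 CPM in restricted hens.

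SAMD9L and EPSTI1, which respond to interferon, were chosen after their values were seen because they were separated, and no list of such genes was counted. SAMD9L had 4.90, 3.95 and 3.98 CPM in ad libitum hens and 0.412, 2.02 and 0.2003 CPM in restricted hens, and EPSTI1 had 6.11, 10.4 and 7.68 CPM against 3.24, 4.13 and 1.502 CPM. CP, the copper protein ceruloplasmin, also chosen after its values were seen, had 136, 149 and 101 CPM in ad libitum hens and 64.5, 54.8 and 27.9 CPM in restricted hens.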
